A study of Homo sapiens with 8 samples.

Results

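The genes described here take part in homologous recombination, in taking recombined DNA molecules apart, and in the Fanconi anaemia pathway of crosslink repair. They were chosen by symbol, and all 52 chosen symbols were found among the 61228 of the count table. A filter on low counts kept 51 of them, among 14243 genes tested in all. The exception was TOP3A, the topoisomerase that works with BLM to separate joined DNA molecules, which held 1 to 14 counts per library.

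RNA was sequenced from 8 clones of RPMI-8402, an established T-ALL (T-cell acute lymphoblastic leukaemia) cell line, cultured with no treatment. Clones C12, C15, S04 and S36 have the genotype label NKX2-1 and are the submitters' knockouts of that gene, which encodes a homeobox transcription factor. Clones WT10, WT13, WT28 and WT30 are their wild-type clones. Every library is 1 clone, and the labels explain neither the edit nor the letters C and S. The targeted gene, NKX2-1, measured 71.999, 11.3, 83.6 and 33.4 CPM (counts scaled to library size by TMM factors) in these knockout clones, in that order, beside 53.6 to 63.2 CPM in wild-type clones. Thus C12 and S04 had more NKX2-1 mRNA than any wild-type clone, and since a total per gene cannot reveal a small edit, the levels leave the labels unchecked.

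Library totals ran from 12344549 to 25423215 counts in 7 clones, and C15 had 2730285. Summed over 14 T-lineage markers, knockout clones held 2215 to 2472 CPM of library total and wild-type clones 2315 to 2638. ZAP70 and CD1B were near 0, with 40 and 14 counts over all libraries. RAG1 (107 counts), CD1A (144), PTCRA (388) and CD7 (661) were low too, and CD3D, CD3E, CD3G, LCK and DNTT held most of the sum. In CPM of library total the sum was 7.33 to 17.6 for 7 B-cell markers (1 at 0), 0.555 to 3.98 for 8 myeloid markers (3 at 0), 0 to 1.04 for 6 epithelial markers (2 at 0) and 0 to 0.0436 for 6 red-cell and platelet markers (5 at 0). For 6 stromal markers it was 6.89 to 21.5, mostly COL1A1, with COL1A2, COL3A1 and LUM at 0. In bulk RNA, fewer cells of a type and less RNA per cell cannot be told apart.

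Homologous recombination repairs a broken chromosome by copying the sister chromatid. Nucleases first trim the ends (MRE11, RAD50 and NBN with RBBP8, then EXO1 and DNA2), replication protein A (RPA1, RPA2 and RPA3) coats the single strands, and BRCA1 with BARD1, PALB2 and BRCA2 brings in the recombinase that searches for matching sequence. The joined molecules are then separated by BLM with its partners or cut by structure-specific nucleases. Where a crosslink blocks a replication fork, the Fanconi core complex attaches ubiquitin to FANCD2 and FANCI, and recombination completes the repair. The series title names protection of leukaemia cells from DNA damage as its subject.

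Between all knockout and all wild-type clones, 0 of 51 genes rose and 0 fell at an adjusted p under 0.05 (edgeR quasi-likelihood test, Benjamini-Hochberg over all tested genes). Among all tested genes 0.14% rose and 0.176% fell, 0.316% in all. At an unadjusted p under 0.05, 12 of the repair genes were higher (23.5%, beside 8.47% of all tested genes) and 3 were lower (5.88%, beside 6.99%). Fitted values were above 0 for 36 of 51 (70.6%, beside 52.2%). They ran from -0.51 for SWSAP1 to 1.09 for PSMC3IP on the log2 scale, with a median of 0.16 beside 0.02 over all tested genes. DESeq2 called FANCC, FANCG and POLQ higher and 0 genes lower, where it called 1.85% of all genes higher and 1.76% lower.

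The knockout clones lay wholly above the wild-type clones for 7 repair genes (13.7%, beside 4.44% of all tested genes): POLQ, FANCG, MCM9, FANCC, BRCA1, RAD54L and EME1. They lay wholly below for 1, BARD1 (1.96%, beside 5.62%). With 4 clones against 4, such a gene has an exact two-sided permutation p of 0.0286, the smallest this design allows. Single libraries bear on the counts of repair genes. Without C12 the groups were separate for 17 repair genes (33.3%, beside 19.9% of all genes, with fewer clones to separate), and edgeR called FANCG, POLQ and PSMC3IP higher and 0 lower, where it called 1.6% of all genes higher and 1.52% lower. Leaving out C15, S04 or S36 gave 0 calls among the repair genes, beside 0.245%, 0.0342% and 0.0683% of all genes higher and 0.53%, 0.0137% and 0.0683% lower. In either direction, 15 repair genes had an edgeR unadjusted p under 0.05 with all clones (29.4%, beside 15.5% of all genes). This became 8 without S04 (15.7%, beside 14.7%) and 20 without C12 (39.2%, beside 21.1%). It was 7 without WT13 or WT28 (13.7%, beside 10.4% and 10.9%).

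**Figure D1:**
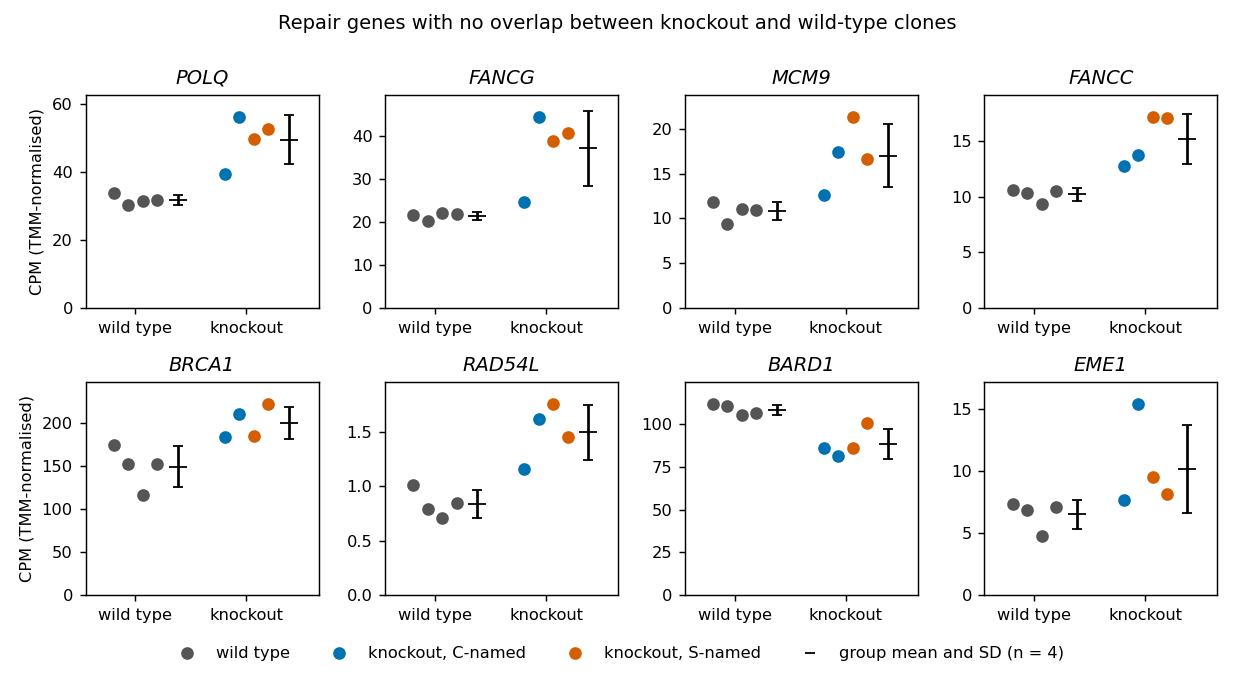
CPM, on linear axes from 0, of the 8 repair genes whose knockout and wild-type clones did not overlap. Each point is a clone, coloured as wild type, C-named or S-named knockout, with the group mean and SD (n = 4) beside it. Knockout clones are above wild type in 7 panels, where C12 is the lowest of them, and below in the BARD1 panel.

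POLQ (chr3:121431427-121546641, GENCODE 29 on GRCh38) encodes DNA polymerase theta, which joins broken ends through short matching stretches. Its level was 39.5, 56.1, 49.6 and 52.8 CPM in C12, C15, S04 and S36, and 33.7, 30.3, 31.6 and 31.7 CPM in WT10, WT13, WT28 and WT30. The wild-type clones were close together and C12 was the knockout clone nearest to them (log2 fold change 0.63, SE 0.15, edgeR adjusted p = 0.109). The 116 tested genes that start within 10 Mb had a median of 0.04, so the neighbourhood did not share the difference.

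FANCG (chr9:35073835-35080016) encodes a subunit of the Fanconi core complex. It measured 24.6, 44.4, 39.00 and 40.8 CPM in the knockout clones, in the order C12, C15, S04, S36, and 21.7, 20.2, 22.1 and 21.9 CPM in the wild-type clones. C12 was just above the wild-type range, well apart from the other knockout clones (log2 fold change 0.78, SE 0.19, edgeR adjusted p = 0.117). FANCC (chr9:95099054-95426796), another core subunit, measured 12.8, 13.7, 17.1 and 17.1 CPM in the knockout clones and 9.34 to 10.6 CPM in wild type. Both S-named clones exceeded both C-named clones (log2 fold change 0.58, SE 0.18, edgeR adjusted p = 0.179).

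FANCG and FANCC lie on chromosome 9, whose 511 tested genes had a median log2 fold change of 0.37. The median was 0.27 for the 82 genes within 10 Mb of FANCG and 0.36 for the 81 within 10 Mb of FANCC. FANCG exceeded its neighbours by 0.51 and FANCC by 0.21. RMI1, which encodes a scaffold of the BLM complex, is on the same chromosome and had 0.59 beside a neighbour median of 0.40. The part of the chromosome-wide shift in these levels was not tested.

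MCM9 (chr6:118813442-118935162) encodes a helicase subunit that acts with MCM8 in recombination. It measured 12.7, 17.4, 21.3 and 16.7 CPM in the knockout clones and 11.9, 9.39, 11.1 and 10.97 CPM in the wild-type clones, where C12 was closest to wild type (log2 fold change 0.65, SE 0.20, edgeR adjusted p = 0.176). Its 68 neighbours had a median of -0.0065. MCM8 measured 55.9, 103, 64.1 and 99.3 CPM in the knockout clones, which lay on both sides of the wild-type range of 76.4 to 91.7 CPM (log2 fold change -0.07, SE 0.20, edgeR adjusted p = 0.910). Relative to wild type, its 75 neighbours had medians of -0.53, 0.13, -0.62 and 0.41 in C12, C15, S04 and S36. MCM8 itself had -0.58, 0.30, -0.38 and 0.25. The part of this chromosome 20 region in the MCM8 levels was not tested. HELQ, a helicase that unwinds branched DNA, had a log2 fold change of 0.03.

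Promoter sequences are printed for the 4 repair genes with the smallest p and for BARD1, the 1 gene that was lower without overlap, so that their motif content can be set beside the levels. Each is the 250 bases before the RefSeq start on GRCh38.p14, written 5′ to 3′ on the gene's own strand, which is the minus strand for all 5. Capitals mark matches to the motifs spelled out in the paragraphs after them. The windows are chr3:121545989-121546238 for POLQ, chr9:35079943-35080192 for FANCG, chr9:95317710-95317959 for FANCC, chr6:118935160-118935409 for MCM9 and chr2:214809684-214809933 for BARD1. In all 5 the RefSeq start lies inside the GENCODE gene, farthest in for FANCC and POLQ, and other starts are not shown.
POLQ: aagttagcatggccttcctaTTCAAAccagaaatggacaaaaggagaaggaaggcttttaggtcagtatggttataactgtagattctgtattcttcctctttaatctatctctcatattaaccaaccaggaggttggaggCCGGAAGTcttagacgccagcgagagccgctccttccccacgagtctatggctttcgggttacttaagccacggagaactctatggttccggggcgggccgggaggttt
FANCG: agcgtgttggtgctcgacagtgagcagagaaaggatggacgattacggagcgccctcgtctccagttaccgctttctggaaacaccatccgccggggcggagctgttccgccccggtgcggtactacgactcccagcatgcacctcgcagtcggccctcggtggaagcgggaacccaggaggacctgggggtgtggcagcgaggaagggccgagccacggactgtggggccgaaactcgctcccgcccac
FANCC: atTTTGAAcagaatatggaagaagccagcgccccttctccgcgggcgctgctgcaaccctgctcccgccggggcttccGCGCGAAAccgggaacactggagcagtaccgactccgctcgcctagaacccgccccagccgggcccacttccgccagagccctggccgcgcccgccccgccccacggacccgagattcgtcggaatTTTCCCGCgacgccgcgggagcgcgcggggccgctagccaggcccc
MCM9: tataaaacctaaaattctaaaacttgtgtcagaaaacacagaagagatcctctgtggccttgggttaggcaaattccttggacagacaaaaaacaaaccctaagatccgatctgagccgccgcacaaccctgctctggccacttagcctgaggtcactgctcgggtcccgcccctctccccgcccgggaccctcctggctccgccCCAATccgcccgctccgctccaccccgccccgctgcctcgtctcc
BARD1: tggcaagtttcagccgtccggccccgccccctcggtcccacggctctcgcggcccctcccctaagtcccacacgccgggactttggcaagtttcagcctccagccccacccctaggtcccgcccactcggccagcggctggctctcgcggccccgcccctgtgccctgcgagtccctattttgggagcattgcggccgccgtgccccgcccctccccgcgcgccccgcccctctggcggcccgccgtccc
The POLQ window has an ETS match 109 bases before the start and a CHR match at 230. FANCC has E2F matches at 172 and 46 and a CHR match at 248, and MCM9 has a CCAAT box at 45. The FANCG and BARD1 windows have no match to the letters searched.

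Promoter entries of 250 bases before and 50 after the start were found for 44 of 52 repair genes and searched on both strands. E2F letters (TTTCCCGC, TTTCGCGC, TTTGCCGC or TTTGGCGC) were in 7 of 44 (15.9%), in 5.71% of the 9616 tested genes with an entry and in 3.33% of all 27305 promoters. The 7 were EXO1, GEN1, FANCD2, XRCC2, FANCC, FANCA and MCM8. ETS letters (CCGGAAGT) were in 8 (18.2%, beside 9.38% of tested genes), among them POLQ, PALB2, BRCA2 and EME1. A CCAAT box (CCAAT) was in 20 (45.5%, beside 37.5%) and CHR letters (TTTGAA or TTCGAA) in 6 (13.6%, beside 11.6%). The NRF1 motif was in SLX4 (2.27%, beside 2.55%).

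For the factors in the series title, the RUNX letters TGTGGT were in HELQ and BRIP1 (4.55%, beside 9.29% of tested genes), and the NKX2-1 letters CAAGTG in FANCL, FANCE, FAN1 and RBBP8 (9.09%, beside 8.23%). The median share of G and C was 64.2% in the repair genes' promoters and 65.0% in those of tested genes. Repair genes with E2F letters had a median log2 fold change of 0.17 and those without 0.21. The medians with and without were 0.19 and 0.20 for the RUNX letters and -0.14 and 0.23 for the NKX2-1 letters, over few genes with a match. A match describes letters in this window and does not show binding.

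Of the 6 end-resection genes, 4 had a value above 0 and 0 had an unadjusted p under 0.05. DNA2, the nuclease and helicase of long-range resection, measured 15.6 CPM in C12 and 12.1 in C15, but 23.4 in S04 and 25.98 in S36, beside 12.5 to 16.3 CPM in wild type. EXO1, the exonuclease of the same step, measured 30.6, 26.6, 45.7 and 56.1 CPM in these clones, beside 26.2 to 30.6 CPM. In both genes only the S-named clones stood above wild type (log2 fold change 0.51, SE 0.24, edgeR adjusted p = 0.332 for DNA2). Relative to wild type, DNA2 had 0.77 in S04 and 0.92 in S36, and its neighbours within 10 Mb had medians of 0.03 and 0.27. EXO1 had 0.67 and 0.96 in these clones, and its neighbours 0.13 and 0.26. The part of these regions in the DNA2 and EXO1 levels was not tested. MRE11 (0.10), RAD50 (0.01), RBBP8 (-0.14) and NBN (-0.23), which start the trimming, had smaller values.

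**Figure D2:**
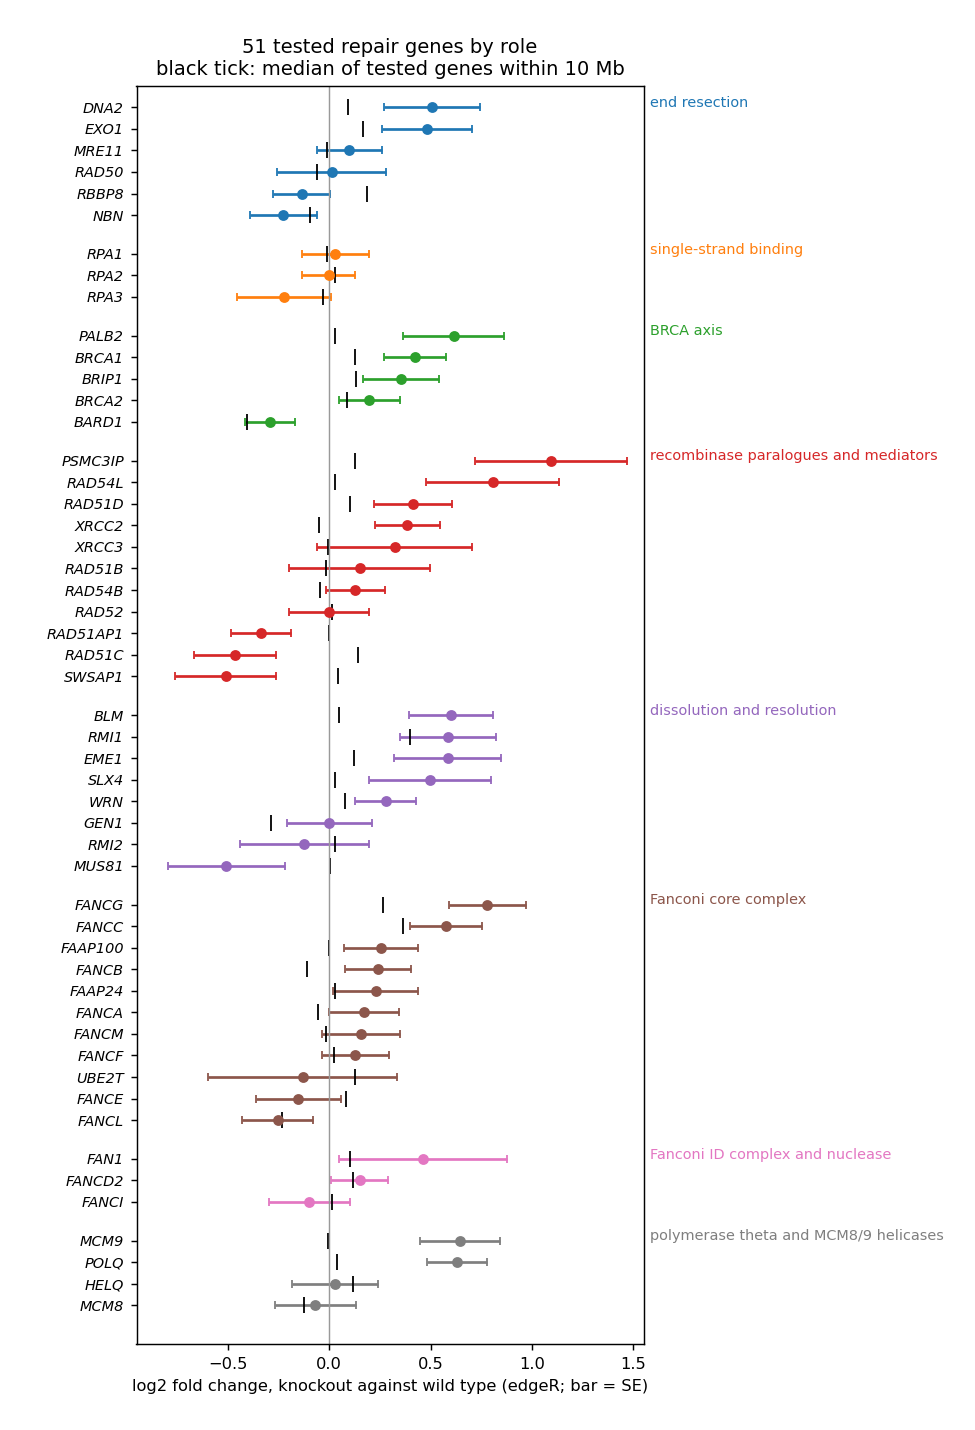
Log2 fold change of knockout against wild-type clones for the 51 tested repair genes by role, with SE bars, and a black tick at the median of tested genes within 10 Mb. PSMC3IP is highest at 1.09 and SWSAP1 lowest at -0.51, and the ticks of RMI1, FANCG and FANCC lie to the right of 0 and those of BARD1, GEN1 and FANCL to the left.

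For the single-strand binding proteins the log2 fold changes were 0.03 for RPA1, -0.0027 for RPA2 and -0.22 for RPA3. RPA3 measured 86.8, 41.99, 94.4 and 54.3 CPM in the knockout clones and 70.96 to 89.1 CPM in wild type. C15 and S36 were below the wild-type range, S04 above it and C12 inside it (log2 fold change -0.22, SE 0.23, edgeR adjusted p = 0.688). The value was -0.064 without C15, -0.12 without S36, -0.35 without C12 and -0.40 without S04.

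In the BRCA axis 4 of 5 genes had a value above 0. BRCA1 (chr17:43044295-43170245) measured 183, 210, 185 and 222 CPM in the knockout clones and 175, 153, 117 and 153 CPM in the wild-type clones. The gap was narrow, between 175 CPM in WT10 and 183 in C12 (log2 fold change 0.42, SE 0.15, edgeR adjusted p = 0.221). Without WT28 the value was 0.32. The 235 neighbours of BRCA1 had a median of 0.13. In WT28, relative to the other wild-type clones, they had -0.37 and BRCA1 -0.45. Neighbour medians in WT28 ran from -0.29 for RAD51D to -0.39 for EME1, with PSMC3IP, RAD51C and BRIP1 between. The part of this chromosome 17 region in these levels was not tested. BARD1 (chr2:214725646-214809711), whose protein pairs with BRCA1 as a ubiquitin ligase, was lower in the knockout clones. It measured 85.97, 81.1, 85.8 and 101 CPM in the knockout clones and 105 to 111 CPM in wild type, with S36 nearest to the wild-type range (log2 fold change -0.29, SE 0.12, edgeR adjusted p = 0.296).

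BARD1 lies on chromosome 2, where the 947 tested genes had a median of -0.31 and the 82 within 10 Mb of BARD1 one of -0.41. BARD1 was thus 0.12 above its neighbours. FANCL, the ubiquitin ligase of the core complex, and GEN1, a nuclease that cuts joined molecules, are on this chromosome too. FANCL had -0.25 beside -0.23 for its neighbours, and GEN1 0.0016 beside -0.29. Of the 45 tested repair genes outside chromosomes 2 and 9, 32 had a value above 0, beside 52.2% of all tested genes on any chromosome. Of all 51, 36 were above the median of their own neighbours, a count that was not taken over all tested genes. The part of chromosome-wide shifts in these counts was not tested.

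PALB2, which links BRCA1 to BRCA2, measured 16.9 CPM in C12 and 16.6 in C15, within the wild-type range of 11.6 to 18.5 CPM. S04 at 31.9 and S36 at 28.7 CPM were above it (log2 fold change 0.61, SE 0.25, edgeR adjusted p = 0.279). BRIP1, a helicase bound by BRCA1, had a log2 fold change of 0.35, and BRCA2 had 0.20.

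Recombinase paralogues and mediators covered the widest range of any role, with 8 of 11 above 0. PSMC3IP, whose product works with MND1 to stimulate strand exchange, measured 4.01, 10.1, 8.15 and 14.3 CPM in the knockout clones and 2.59 to 5.25 CPM in wild type. C12 was inside the wild-type range and the other 3 above it (log2 fold change 1.09, SE 0.37, edgeR adjusted p = 0.205), and without S36, the highest, the value was 0.73. Its partner MND1, from a list of other pathway genes, measured 6.87 CPM in C12 and 13.7 in C15, but 81.3 in S04 and 52.4 in S36, beside 5.57 to 14.05 CPM in wild type (log2 fold change 2.06, SE 0.63, edgeR adjusted p = 0.177). MND1 was the 1 gene of that list higher in S-named than in C-named clones at an adjusted p under 0.05 (C minus S -2.83, SE 0.48, edgeR adjusted p = 0.0490). That call was lost when any 1 wild-type clone was left out (adjusted p = 0.101 to 0.145, with 0 genes of the table called in each of these fits) and without C12, C15 or S04 (0.0568, 0.0630 and 0.0530). It was lost too with RLE size factors (0.0511) and with a stricter filter (0.0504), and held without S36 (0.0422), with limma-voom (0.0273), with DESeq2 and without a low-count filter.

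RAD54L, a motor protein of the recombinase filament, measured 1.16, 1.61, 1.75 and 1.45 CPM in the knockout clones and 0.708 to 1.01 CPM in wild type. The groups were separate, but the C15 value rests on 4 counts (log2 fold change 0.81, SE 0.33, edgeR adjusted p = 0.279). RAD51AP1, an accessory factor of the recombinase, measured 155, 134, 114 and 104 CPM in the knockout clones and 150 to 171 CPM in wild type. S36 and S04 were lowest and C12 was inside the wild-type range (log2 fold change -0.34, SE 0.15, edgeR adjusted p = 0.312).

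The paralogues that stabilise the filament had values on both sides of 0. RAD51D had a log2 fold change of 0.41, XRCC2 0.39, XRCC3 0.32, RAD51B 0.15 and RAD51C -0.46. SWSAP1, which acts in a related complex, had -0.51, RAD54B, a homologue of RAD54L, 0.13, and the annealing factor RAD52 0.0013.

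Among 8 tested genes that dissolve or cut joined molecules, 6 had a value above 0. BLM, the helicase lost in Bloom syndrome, measured 40.6, 45.2, 74.02 and 70.7 CPM in the knockout clones and 34.7 to 43.7 CPM in wild type. The S-named clones were far above the range, C15 slightly above it and C12 inside it (log2 fold change 0.60, SE 0.21, edgeR adjusted p = 0.205). RMI1, its partner, measured 38.7, 31.5, 72.99 and 43.1 CPM in the knockout clones and 28.3 to 35.9 CPM in wild type, with C15 inside the range (log2 fold change 0.59, SE 0.24, edgeR adjusted p = 0.272). Without S04, the highest clone, the value was 0.28.

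EME1 and MUS81 encode the subunits of 1 nuclease and had values of opposite sign. EME1 measured 7.64, 15.3, 9.48 and 8.10 CPM in the knockout clones and 4.77 to 7.34 CPM in wild type, so C12 was barely above WT10 (log2 fold change 0.58, SE 0.26, edgeR adjusted p = 0.322). Without C15 the value was 0.36. MUS81 measured 39.4, 16.1, 28.4 and 14.98 CPM in the knockout clones and 30.2 to 45.2 CPM in wild type, with C12 inside the range and the other 3 below it (log2 fold change -0.51, SE 0.29, edgeR adjusted p = 0.430). SLX4, a scaffold for such nucleases, measured 2.62, 3.63, 3.68 and 1.83 CPM in the knockout clones and 1.78 to 2.29 CPM in wild type, with S36 inside the range and 9 counts behind the C15 value (log2 fold change 0.50, SE 0.30, edgeR adjusted p = 0.458). Without S04 it was 0.32. WRN, the Werner syndrome helicase, had a log2 fold change of 0.28, and RMI2 had -0.12.

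In the Fanconi core complex with UBE2T, 8 of 11 genes had a value above 0. Apart from FANCG and FANCC these ran from 0.13 for FANCF to 0.26 for FAAP100, with the other subunits and partners FANCM, FANCA, FAAP24 and FANCB between, and FANCE had -0.15. UBE2T, the enzyme that passes ubiquitin to FANCD2, measured 103, 16.1, 152 and 48.4 CPM in the knockout clones and 77.7 to 100 CPM in wild type. C15 and S36 were far below the wild-type range, and S04 and C12 above it. Its value (log2 fold change -0.13, SE 0.47, edgeR adjusted p = 0.928) became 0.18 without C15, 0.055 without S36, -0.27 without C12, -0.61 without S04, -0.080 without WT13 and -0.20 without WT30.

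The substrates FANCD2 and FANCI had log2 fold changes of 0.15 and -0.10. FAN1, a nuclease recruited to them, measured 0.810, 1.21, 1.93 and 1.60 CPM in the knockout clones, with 3 counts in C15, and 0.710 to 1.60 CPM in wild type. S04 alone was clearly above the wild-type range (log2 fold change 0.46, SE 0.41, edgeR adjusted p = 0.635). The value was 0.22 without S04, 0.70 without C12 and 0.77 without WT28.

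Clones varied more among knockouts than among wild types in 46 of 51 repair genes, as in 88.9% of all tested genes. The median SD of log2 CPM was 0.33 among knockout and 0.14 among wild-type clones. It was widest for UBE2T (1.42 beside 0.15) and XRCC3 (1.03 beside 0.05). XRCC3 measured 18.4, 33.1, 5.86 and 16.7 CPM in the knockout clones and 13.7 to 14.9 CPM in wild type, so S04 was low and C15 high around a tight wild-type group. RAD51B also varied, and its C15 value rests on 2 counts.

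Clone by clone, C12 exceeded every wild-type clone in 16 of 51 repair genes, C15 in 22, S04 in 31 and S36 in 30, beside 24.9%, 35.3%, 37.1% and 36.7% of all tested genes. They were below every wild-type clone in 9, 19, 12 and 11 of the 51, beside 23.8%, 41.9%, 36.8% and 36.5%. C15, the shallowest library, had nearly as many low as high repair genes, where low exceeded high among all tested genes. S04 and S36 had more high than low repair genes, where the shares of all tested genes were nearly equal.

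**Figure D3:**
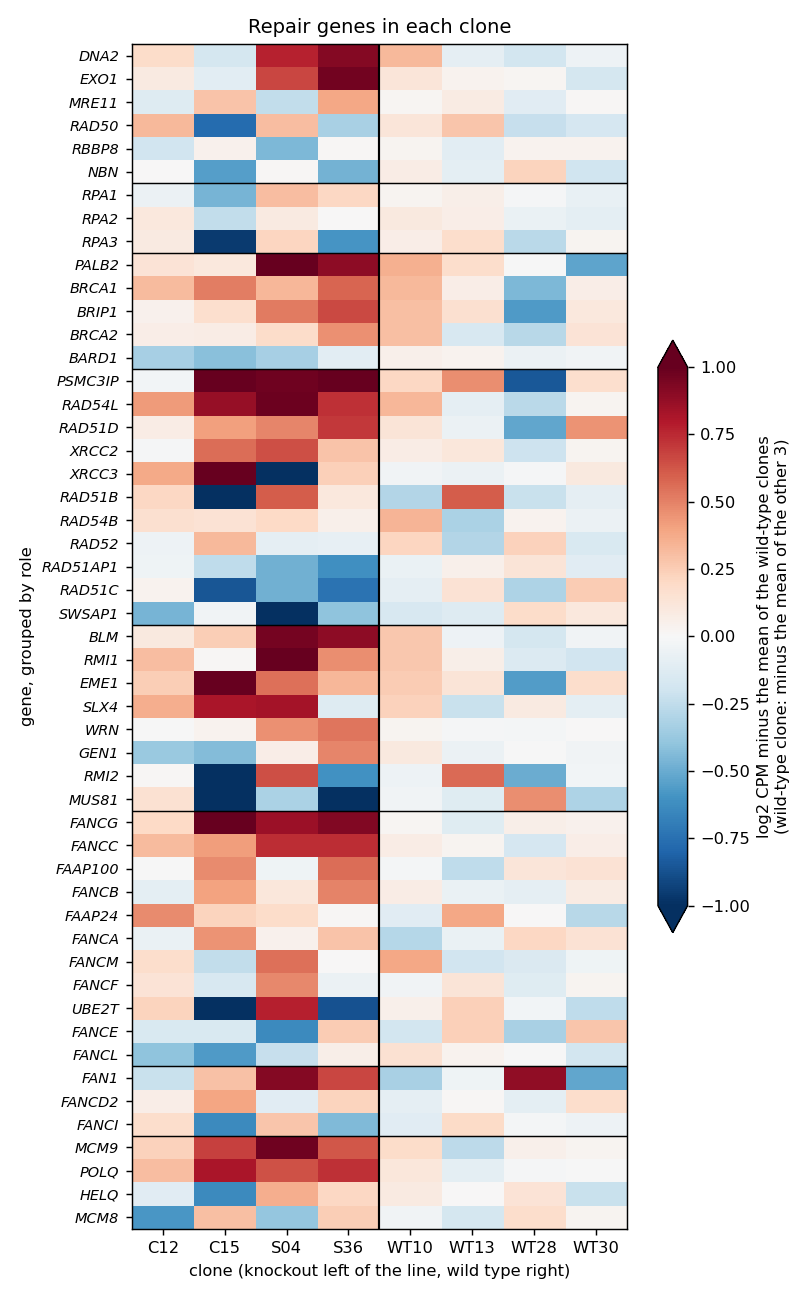
Log2 CPM of the 51 tested repair genes in each clone minus the wild-type mean (for a wild-type clone, minus the mean of the other 3), grouped by role, with colours that saturate at a difference of 1. DNA2, EXO1, PALB2 and BLM are dark red in S04 and S36 and pale in C12 and C15, and UBE2T is red in C12 and S04 and blue in C15 and S36.

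Both S-named clones exceeded every wild-type clone in 21 of 51 repair genes (41.2%, beside 20% of all tested genes) and were below in 5 (9.80%, beside 20%). Both C-named clones exceeded wild type in 9 (17.6%, beside 9.7%) and were below in 4 (7.84%, beside 12%). With S04 and S36 as the only knockouts, edgeR found 11 of 52 repair genes (TOP3A passed the filter here) risen and 2 fallen, where 7.17% of all genes rose and 7.36% fell. With C12 and C15 as the only knockouts it found 0 risen and 0 fallen, where 0.0264% and 0.0132% of all genes did, and 7 of 51 repair genes (13.7%, beside 10.3% of all genes) had an unadjusted p under 0.05. The comparisons share the wild-type clones.

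Of the repair genes that rose in S-named clones, the smallest edgeR adjusted p were those of BLM (log2 fold change 0.91, SE 0.13, adjusted p = 0.00591), FANCG (0.88, SE 0.13, adjusted p = 0.00608), EXO1 (0.81, SE 0.14, adjusted p = 0.0104) and POLQ (0.67, SE 0.12, adjusted p = 0.0119). DNA2 (0.83), PALB2 (0.95), WRN (0.48), FANCC (0.73), MCM9 (0.80), PSMC3IP (1.39) and RMI1 (0.88) rose too. RAD51AP1 (-0.56, SE 0.12, adjusted p = 0.0188) and RAD51C (-0.63, SE 0.16, adjusted p = 0.0359) fell. In C-named clones the log2 fold change was -0.0052 for EXO1, 0.04 for DNA2, 0.09 for PALB2 and 0.14 for BLM, but 0.54 for POLQ and 0.60 for FANCG.

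The difference between C-named and S-named clones was tested directly. By edgeR, 0 of 51 repair genes passed an adjusted p of 0.05 in either direction, where 0.225% of all tested genes were higher in C-named and 0.133% in S-named clones. At an unadjusted p under 0.05, 10 were higher in S-named clones (19.6%, beside 8.19% of all tested genes) and 2 in C-named clones (3.92%, beside 8.94%). Nearest to the threshold were BLM (C minus S -0.76, SE 0.17, edgeR adjusted p = 0.0832) and EXO1 (-0.82, SE 0.19, adjusted p = 0.0836), the 2 that DESeq2 called (3.92%, beside 4.07% of all genes). The others higher in S-named clones were PALB2 (-0.85), DNA2 (-0.80), RMI1 (-0.71), GEN1 (-0.69), HELQ (-0.60), RPA1 (-0.50), BRIP1 (-0.49) and WRN (-0.48). RAD51AP1 (0.40) and XRCC3 (1.16) were higher in C-named clones. For POLQ the difference was -0.12 (SE 0.20) and for FANCG -0.25 (SE 0.26).

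**Figure D4:**
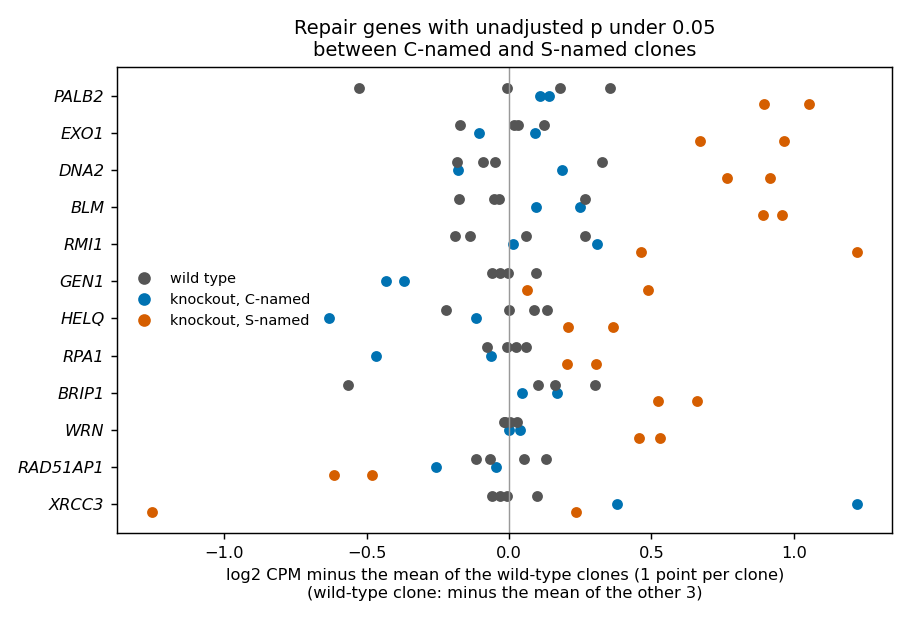
Log2 CPM minus the wild-type mean, 1 point per clone (for a wild-type clone, minus the mean of the other 3), for the 12 repair genes with an unadjusted p under 0.05 between C-named and S-named clones. In PALB2, EXO1, DNA2, BLM and WRN both C-named clones lie in or next to the wild-type cloud and both S-named clones lie to its right.

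Longer transcripts held most of the higher values, in a split chosen after the values were seen. The median principal transcript of tested genes was 3.07 kb long, and 30 repair genes were longer. Of these 25 had a log2 fold change above 0, with a median of 0.23, and of the other 21 it was 11, with a median of 0.0013. Among all tested genes split in this way, 2980 of 5435 longer and 2678 of 5436 shorter ones were above 0, with medians of 0.04 and -0.0065. By clone, the median difference from wild type in S36 was 0.46 for long and 0.01 for short repair genes, beside 0.06 and -0.06 for all genes. In C15 it was 0.13 and -0.15, beside -0.05 and -0.10, and in S04 0.35 and 0.19, beside 0.06 and -0.02. C12 did not show it, with 0.07 for long and 0.09 for short repair genes, beside 0.01 and 0.03. The part of transcript length in the repair genes' levels was not tested.

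**Figure D5:**
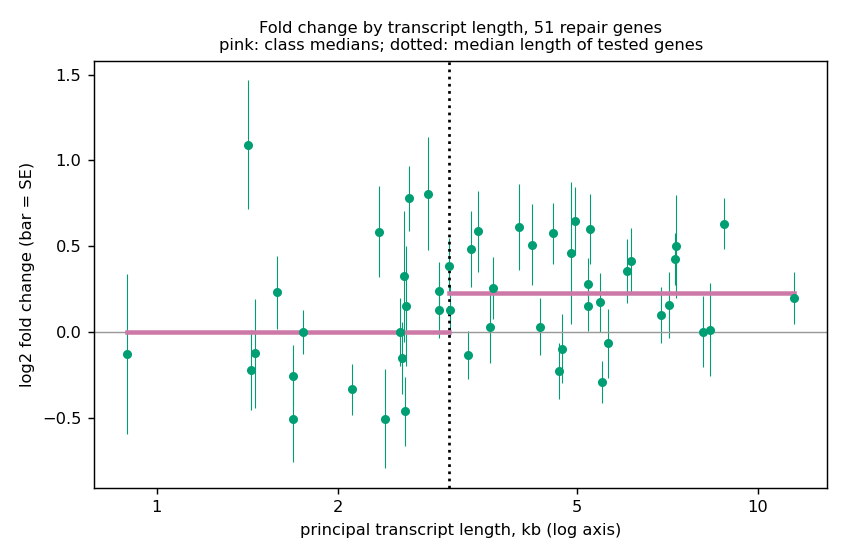
Log2 fold change (bars: SE) of the 51 tested repair genes against principal transcript length in kb, on a log axis. The dotted line marks 3.07 kb, and the pink lines mark the medians of the shorter (0.0013) and longer (0.23) genes.

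Per kb of principal transcript, the median wild-type level of the repair genes was 8.62 CPM per kb, beside 6.71 for the 10871 tested genes with a length. UBE2T (99.8 ± 10.5 CPM per kb, SD, n = 4) was highest, followed by RAD51AP1 (75.6 ± 4.38) and RPA2 (74.3 ± 3.75), which did not differ beyond their SD. RAD54L (0.296 ± 0.0454), SLX4 (0.277 ± 0.0306) and FAN1 (0.207 ± 0.0828) were lowest, and neighbours in this order overlapped within their SD. RPA2 measured 140, 109, 138 and 130 CPM in the knockout clones and 124 to 137 CPM in wild type, so C15 was low and C12 and S04 just above the range (log2 fold change -0.0027, SE 0.13, edgeR adjusted p = 0.994).

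Read assignment limits some of these genes. In GENCODE 29, 33 of 52 overlap a gene on the opposite strand and 15 one on the same strand, and the labels do not say if strand was used. MCM9 overlaps ASF1A, EME1 overlaps LRRC59, PSMC3IP overlaps MLX, RAD54L overlaps LRRC41, MUS81 overlaps CFL1 and EFEMP2, and XRCC3 overlaps KLC1. RAD50 overlaps another protein-coding gene on its own strand. FANCG, BARD1, EXO1 and UBE2T overlap no annotated gene.

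A list of 48 other genes of recombination and crosslink repair was divided about evenly in direction. The table held 47 of them and 45 were tested. Of these 23 had a value above 0, the median log2 fold change was 0.01, and 0 passed the edgeR threshold. At an edgeR unadjusted p under 0.05, 5 were higher and 5 lower (11.1% each, beside 8.47% and 6.99% of all tested genes). RIF1, which shields broken ends from resection, measured 307, 339, 213 and 269 CPM in the knockout clones and 383 to 445 CPM in wild type (log2 fold change -0.54, SE 0.16, edgeR adjusted p = 0.165). SMC5, a subunit of a complex that holds recombining molecules, measured 183, 234, 193 and 204 CPM in the knockout clones and 149 to 162 CPM in wild type (log2 fold change 0.37, SE 0.13, edgeR adjusted p = 0.202). RIF1 was lower and SMC5 higher in every knockout clone. The knockout clones lay wholly above wild type for 4 of the 45 (8.89%, beside 4.44% of all tested genes). They lay wholly below for 3 (6.67%, beside 5.62%). Neighbours within 10 Mb were not examined for RIF1 and SMC5, so shifts of their chromosomes were not set beside them. Medians were 0.17 for 10 end-joining genes, 0.0089 for 31 excision and mismatch repair genes, 0.09 for 29 replication genes and 0.00066 for 24 mitosis genes. In these lists 0 genes passed the edgeR threshold. At an edgeR unadjusted p under 0.05, 1, 3, 4 and 2 genes were higher (10%, 9.68%, 13.8% and 8.33%, beside 8.47% of all tested genes). In the same order 1, 4, 2 and 0 were lower (10%, 12.9%, 6.90% and 0%, beside 6.99%). In S04 and S36 the replication genes had medians of -0.05 and 0.17 relative to wild type and the mitosis genes 0.03 and -0.14, beside 0.31 and 0.25 for the recombination and Fanconi genes. The end-joining genes had -0.03 and 0.32, and the excision and mismatch repair genes -0.25 and 0.14. Of the 10 end-joining genes 8 had a value above 0 (80%, beside 70.6% of the recombination and Fanconi genes). The part of cell division in the recombination and Fanconi genes was not tested further.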

How the data were processed

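The authors deposited raw counts per gene symbol for the 8 clones. The submitters' processing notes list FastQC, TopHat2, SAMtools, Subread and hg38, and give no version or role; annotation and strand setting are not stated. Genes were filtered with filterByExpr, scaled by TMM and fitted over the whole table in edgeR 4.0.16 (R 4.3.3), with two-sided quasi-likelihood tests and a threshold of 0.05 after Benjamini-Hochberg adjustment. Log2 CPM used a prior count of 2. A fit with 3 groups compared C-named with S-named clones. DESeq2 1.42.0, limma 3.58.1 (voom), other filters and scalings, left-out clones, thinning to 2730285 counts, and leaving out chromosomes 2 and 9 or mitochondrial and histone genes were alternatives. The fit was tested on simulated counts. Positions and APPRIS principal lengths came from GENCODE 29, which matched 56829 symbols, and promoters from RefSeq.

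Members and lists were chosen with earlier results of these data known. Each clone's value is given for repair genes past the threshold or without overlap, the 10 with the smallest p, the largest change of each role, the 3 highest and 3 lowest per length, and the 3 other pathway genes with the smallest p. EXO1, MCM8, MUS81 and XRCC3 were added after their values were seen. A count of 0 allows 3 counts, which is 1.10 CPM of library total in C15 and 0.118 in C12, counting error only. Clones of a group differed beyond sampling noise (chi-square per degree of freedom 12.3 or more), so all were kept as separate samples. The labels name no culture or date, and p-values cover only the spread among these clones, which may be partly technical.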

Additional observations from a re-analysis of the deposited data

Results flagged for a closer look

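Each of the 51 tested repair genes was examined in its 4 knockout and its 4 wild-type clones for 1 clone standing apart. This was so in 3 of 102 groups, where about 5.1 would be so by chance. RBBP8 was low in WT13 (log2 CPM 7.12), RAD52 was high in C15 (3.66) and EME1 was low in WT28 (2.29). Relative to the other wild-type clones, EME1 had -0.56 in WT28, and the 239 tested genes within 10 Mb had a median of -0.39. The part of this region in the EME1 level was not tested. Without WT28 the log2 fold change of EME1 was 0.46, and without C15 0.36.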

How the results depend on the processing

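The number of repair genes past the threshold, 0, became 3 of 51 with DESeq2, beside 3.6% of all genes. With S-named clones only it became 13 of 52, beside 14.5% of all genes. It ran from 0 to 3 with 1 clone left out, with 3 of 51 without C12, beside 3.13% of all genes. Between C-named and S-named clones 0 passed; this became 1 of 52 without a low-count filter (XRCC3), beside 2.43% of all genes, and 2 of 51 with DESeq2, beside 4.07%. It ran from 0 to 1 with 1 clone left out: RPA1 without C12, beside 5.14% of all genes, and XRCC3 without S36, beside 1.35%. Separate groups, 8 of 51 genes (15.7%, beside 10.1% of all genes), became 13 with C-named clones only (25.5%, beside 21.5% of all genes), 26 of 52 with S-named only (50%, beside 40% of all genes), 3 of 47 after thinning (6.38%, beside 8.84% of all genes) and 5 of 45 without chromosomes 2 and 9 (11.1%, beside 8.31% of all genes). They ran from 8 (without WT28, 15.7%, beside 12.7% of all genes) to 17 (without C12, 33.3%, beside 19.9% of all genes) with 1 clone left out; fewer clones separate more genes by construction. Of all genes, 45 passed, against 581 unfiltered, 513 with DESeq2, 94 with limma-voom, 6 with C-named only, 2211 with S-named only, 1 after thinning and 3 to 456 with 1 clone left out. The median of the repair genes stayed above 0 in every alternative run, from 0.04 with C-named to 0.27 with S-named clones only.

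FAN1 became -0.20 with C-named clones only. UBE2T became 0.16 with S-named only, 0.18 without C15 and 0.055 without S36, with a range of -0.61 to 0.18 over single clones left out. RPA2, near 0 throughout, became 0.0021 with RLE factors, 0.011 with a stricter filter, 0.0070 with DESeq2, 0.012 with limma-voom, 0.033 with S-named only, 0.0027 after thinning, 0.061 without C15, 0.015 without WT10 and 0.0058 without WT13 (-0.048 to 0.061 over single clones left out). Apart from alternatives that use fewer samples or counts, the cause was not tested. No paired analysis was possible because the labels give the clones no shared replicate numbers. C15's depth limits genes near 1 CPM, such as RAD54L, FAN1, RAD51B and SLX4, and also RAD50, with 7 counts there.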
